A study of Rattus norvegicus with 57 samples.

Results

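The genes described here encode the machinery of DNA replication and the S phase functions that run beside it. They form a list of 47 names, from the MCM helicase to the cyclins that open S phase, chosen by name and role. Of the 47, 46 had a probe set on the array, and 45 passed the filter on dim probe sets, among 11683 genes tested. Orc1, the ATPase of the origin recognition complex, was under a signal of 16 on all 57 arrays, with a highest value of 8.00, and Cdc7, the kinase that fires origins, was not analysed here. The data are Affymetrix expression arrays of kidney cortex from rats given cisplatin, a platinum drug that binds DNA and damages kidney tubules. Male Han Wistar rats, 8 weeks old when dosed, received 1 intraperitoneal injection of saline alone or of cisplatin in saline at 1 or 3 mg/kg, and their cortex-enriched kidney homogenate was taken 3, 5, 8 or 26 days later. The design text gives 6 rats per group. The arrays analysed here, each a biological replicate in the labels, numbered 57, with 5 in each group but those of the controls at day 26, which had 4, and of the lower dose at day 5, which had 3.

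Cells replicate their DNA once in each cycle. In G1, the origin recognition complex, Cdt1 and related loaders place the MCM2-7 helicase on origins, and geminin, the product of Gmnn, later binds Cdt1 to block reloading. Cyclin E with its kinase, together with E2F transcription factors, opens S phase. Cdc45, the GINS complex and Mcm10 then activate the helicase, primase starts each strand, the polymerases alpha, delta and epsilon extend it, and PCNA, loaded by the RFC complex, clamps them to DNA. Most cells of an adult kidney tubule are out of the cycle, and tubule cells that survive an injury are known to re-enter it. Cisplatin lesions also block replication forks, so damage and repair both bear on these genes. In RNA from a homogenate, a change in the number of cycling cells cannot be told apart from a change of transcript per cell.

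Arrays were alike in brightness, with medians of 20.3 to 26.2, and arrays of one group correlated at 0.973 to 0.993. The 3'/5' signal ratio of the actin control, a sign of RNA quality, ran from 4.47 to 8.58, the highest on replicate 1 of 1 mg/kg on day 8. All 6 proximal tubule marker genes looked up had a probe set, with summed signals of 11675 to 16508. Mean signals of the 45 replication genes ran from 11.4 to 630, with a median of 44.3, above the median signal of every array. Over all arrays, the mean signal of 7 of the 45 genes lay under 16, namely Uhrf1, Ccne1, Gins1, Pole2, Gins3, Pole and Chaf1a, and 9 lay above 100. Brightness differs between probe sets for reasons other than abundance, so genes were not ranked by it.

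Some promoters of the group, though not most, hold a sequence feature that was rarer among all promoters. The letters were not used to choose the genes, but a choice by S phase role is not independent of E2F. E2F factors bind sites of the form TTTGGCGC, TTTCGCGC or TTTCCCGC, and those letters were searched on both strands from 250 bases before to 50 bases after the RefSeq start of each gene (assembly GRCr8). Such a match lay in 17 of the 41 member promoters in the RefSeq table, 41.5%, and in 501 of all 27457 promoters of the same length, 1.8%. It lay in 12 of 25 genes that changed after 3 mg/kg on day 3, 5 or 8 (48.0%) and in 5 of 15 that did not pass on any of those days (33.3%). The CCAAT letters were in 56.1% of member promoters and 37.7% of all promoters, and TTTGAA, the core of an element of mitotic promoters, in 12.2% and 18.1%. Member promoters were also richer in G and C, with a median of 60% against 52.3%, and a match is a description of letters, not a shown binding site. Shown here are the 150 bases before the start of 5 genes that rose, 4 helicase subunits and Tyms, and of Gins1, which did not pass. Of the 7 genes with a match in this stretch the one not shown is Gins3, which did not pass either. Each reads 5' to 3' on the gene's strand, with E2F matches in capitals. Where a match on one strand overlaps a match on the other, as in Mcm2, Mcm6 and Gins1, the capitals run together.
Mcm2: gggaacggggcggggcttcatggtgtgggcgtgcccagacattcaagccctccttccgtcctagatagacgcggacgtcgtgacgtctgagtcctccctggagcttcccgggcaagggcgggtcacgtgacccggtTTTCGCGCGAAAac
Mcm5: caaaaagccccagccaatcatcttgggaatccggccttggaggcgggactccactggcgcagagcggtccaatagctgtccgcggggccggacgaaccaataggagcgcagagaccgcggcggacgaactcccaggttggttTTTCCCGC
Mcm6: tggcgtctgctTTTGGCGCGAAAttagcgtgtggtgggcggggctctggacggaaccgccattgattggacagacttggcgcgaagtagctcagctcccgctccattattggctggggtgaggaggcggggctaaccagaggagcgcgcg
Mcm7: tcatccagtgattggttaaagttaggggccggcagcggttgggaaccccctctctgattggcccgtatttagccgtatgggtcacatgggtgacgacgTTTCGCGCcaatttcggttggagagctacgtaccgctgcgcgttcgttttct
Tyms: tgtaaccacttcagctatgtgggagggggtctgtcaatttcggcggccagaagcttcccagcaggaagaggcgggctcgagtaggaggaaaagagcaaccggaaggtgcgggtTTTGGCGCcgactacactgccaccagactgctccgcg
Gins1: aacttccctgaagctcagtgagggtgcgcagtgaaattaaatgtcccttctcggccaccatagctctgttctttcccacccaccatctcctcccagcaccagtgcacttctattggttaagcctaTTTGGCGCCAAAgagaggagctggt
The Mcm2 stretch is chr4:122918095-122918244 on the minus strand, with matches beginning 14 and 10 bases before the start. Mcm5 is chr19:13488663-13488812 on the plus strand (match at 8 bases), Mcm6 chr13:42404353-42404502 on the minus strand (139 and 135 bases) and Mcm7 chr12:22163179-22163328 on the minus strand (52 bases). Tyms is chr9:120776084-120776233 on the minus strand (37 bases) and Gins1 chr3:160184770-160184919 on the plus strand (25 and 21 bases). So the same letters sit in this stretch of 5 genes that rose and of 2, Gins1 and Gins3, that did not pass. Cdt1, the gene that rose on most days, has its matches at 8 and 33 bases after the start.

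After 3 mg/kg few replication genes passed as rising on day 3, more on day 5 and most on day 8, and none passed the test on day 26. Values are log2 changes of (signal + 16) against controls of the same day, with the standard error of a limma fit over all arrays, and a gene is said to rise or fall where its Benjamini-Hochberg adjusted p over all genes tested was under 0.05. On day 3, 4 of the 45 genes rose (Cdt1, Mcm7, Tyms and Slbp) and 1 fell (Prim2), against 5.57% and 4.28% of all genes tested (9.85% in either direction). In every treated rat Cdt1 and Slbp were above every control and Prim2 below, which 5.69% and 4.55% of all genes showed. Their median was 0.14, and that of all genes 0.04. These few calls are near the share seen for genes in general. The count of 5 was 2, 1 and 2 without control replicate 1, 3 or 4 and 1, 3 and 2 without treated replicate 2, 4 or 5.

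On day 5, 10 of 45 rose, 22.2%, and 0 fell, where 5.31% of all genes rose and 3.49% fell (8.8% in either direction). The median of the 45 was 0.24 and that of all genes 0.00, and 42 of the 45 changes were above 0. Without control replicate 2 or 5 the count was 6, and without treated replicate 1 it was 5. For 9 of the 45 genes every treated animal exceeded every control, which 5.29% of all genes showed. On day 8, 21 rose, 46.7%, and 2 fell, Prim2 and Rpa1. That day also changed the most genes in general, with 21.4% of all genes rising and 15.9% falling (37.3% in either direction). The median of the 45 was 0.26 against 0.04 for all genes, with 38 above 0. In 9 of them every treated rat was above every control, which 9.41% of all genes showed. The adjustment runs within each comparison, so with more genes passing, a weaker change could pass on day 8 than on day 5. The medians, 0.24 and 0.26, and the 9 genes without overlap were alike on the 2 days. The larger count of day 8 therefore does not by itself show a larger response. On day 26, 0 passed in limma, with 4 at an unadjusted p under 0.05 and a median of 0.09, where 0.753% of all genes passed. The cumulative curves of the 45 genes lay to the right of those of all genes on days 3, 5 and 8, and nearer to them on day 26.

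**Figure D1:**
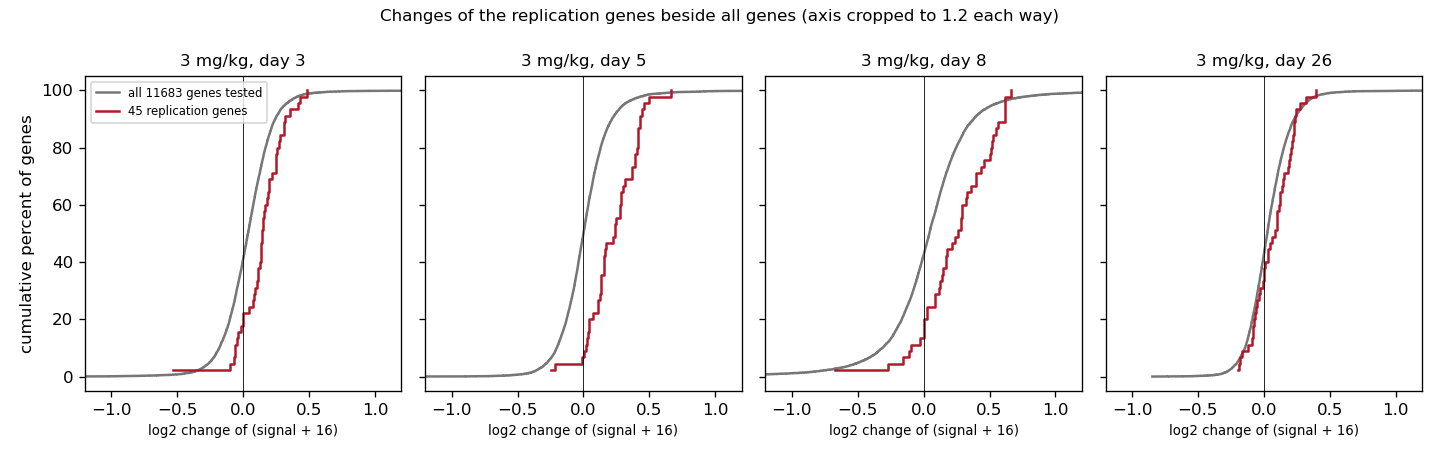
Cumulative percent of genes (vertical axis) against log2 change of (signal + 16) for 3 mg/kg against same-day control (horizontal axis, drawn to 1.2 each way), for all 11683 genes (grey) and the 45 replication genes (red), 1 panel per day. The red curve crosses 50% at 0.14, 0.24, 0.26 and 0.09 on days 3, 5, 8 and 26, and the grey curve at 0.04, 0.00, 0.04 and 0.03.

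Different genes passed on different days, although most of these differences between days were not themselves past a test. Only Cdt1 rose on days 3, 5 and 8. Mcm7 rose on days 3 and 5, Tyms and Slbp on days 3 and 8, and Gins4, Mcm4, Mcm6 and Rpa2 on days 5 and 8. Mcm2, Pcna, Rfc4 and Rrm1 passed on day 5 alone, and 15 genes on day 8 alone. Controls of these 4 day 5 genes read lower on day 5 than on day 8. For Mcm2 the control means were 54.96 and 68.3, and those after 3 mg/kg 75.8 and 69.98. Rfc4 controls read 65.7 to 78.3 and 76.5 to 112.9, and treated rats 100.3 to 128.9 and 82.2 to 133.7. Rrm1 controls read 95.1 to 131.3 and 123.2 to 168.3, and treated rats 142.4 to 167.6 and 124.1 to 179.2. Thus 5 of the 10 genes that rose on day 5 were among the 21 that rose on day 8. The other 17 did not pass on any of these days, namely Chaf1a, Chaf1b, Dut, E2f1, Gins1, Gins3, Pola1, Pola2, Pold1, Pold2, Pold3, Pole2, Rfc1, Rfc2, Rfc5, Rpa3 and Tk1.

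**Figure D2:**
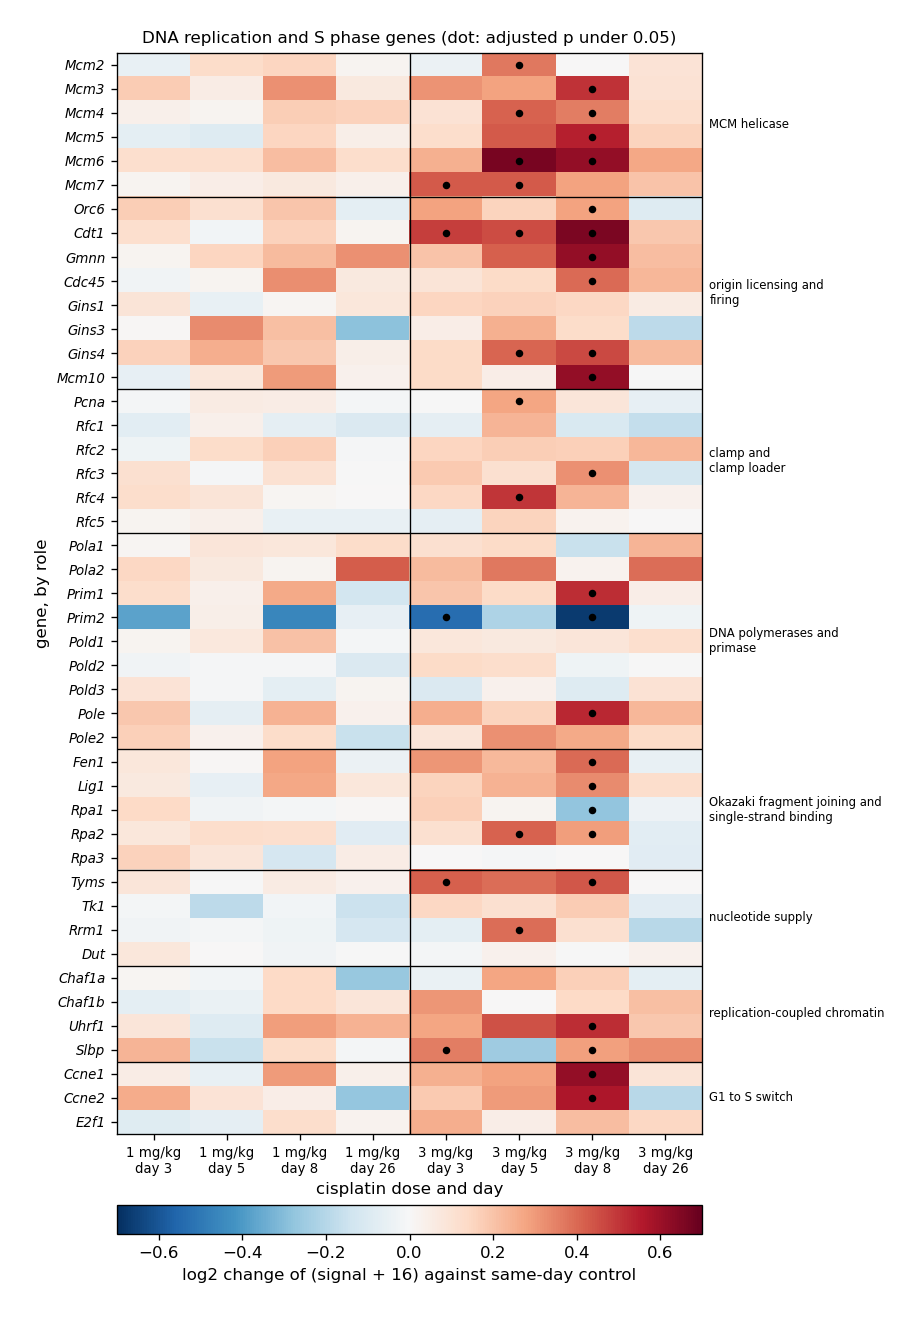
Log2 change of (signal + 16) against same-day control (colour) for the 45 replication genes, in rows by role, after 1 or 3 mg/kg on days 3, 5, 8 and 26, with a dot where the adjusted p was under 0.05. Dots are confined to the 3 mg/kg columns of days 3, 5 and 8, numbering 5, 10 and 23.

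The MCM2-7 helicase, the ring that unwinds DNA at the fork, held the largest rise of the 45 genes on day 5, that of Mcm6. After 3 mg/kg, 1 of its 6 subunits rose on day 3, 4 on day 5 and 4 on day 8, with medians of 0.19, 0.42 and 0.43. The shares of all genes that rose were 5.57%, 5.31% and 21.4% on those days. Mcm6 read 51.04, 48.5, 44.3, 43.3 and 36.6 in the day 5 controls and 108, 62.7, 82.4, 81.5 and 71.6 after 3 mg/kg. All 5 treated rats lay above all controls, and the change was 0.67 ± 0.15 (adjusted p = 0.00316). On day 8 Mcm6 read 44.3, 38.3, 63.95, 43.9 and 34.8 in controls and 112, 62.02, 109.7, 53.4 and 61.8 after 3 mg/kg, 0.62 ± 0.15 (adjusted p = 0.00123). Replicates 1 and 3 were far above the controls, and the other 3 rats lay between the highest control and the other 4 controls. On day 3 its change was 0.25 ± 0.15 (adjusted p = 0.305).

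Mcm7 rose on days 3 and 5 and did not pass on day 8 (0.28 ± 0.13, adjusted p = 0.078). Its day 3 signals were 100.1, 135, 88.2, 121 and 129 in controls and 180.4, 189, 151, 134 and 142 after 3 mg/kg, with 4 of 5 treated rats above every control, 0.43 ± 0.13 (adjusted p = 0.0248). Leaving out 1 array in turn ended that call in 4 of 10 fits and the day 5 call in 5 of 10. Mcm2 read 67.2, 54.6, 53.3, 53.5 and 46.3 in the day 5 controls and 90.4, 60.6, 71.6, 84.6 and 71.6 after 3 mg/kg, a rise of 0.37 ± 0.11 (adjusted p = 0.0296) with 4 of 5 rats above the controls. That call was lost in 6 of 10 leave-one-out fits, at adjusted p up to 0.118 without treated replicate 1. On day 8 its treated rats spread widely, at 95.7, 53.03, 84.2, 50.7 and 66.3 against 70.6, 67.1, 73.2, 72.2 and 58.4 in controls, around no mean change (0.00 ± 0.11). Mcm4 rose on both days, by 0.41 ± 0.14 (adjusted p = 0.0438) and 0.36 ± 0.14 (adjusted p = 0.0334), and the day 5 call was lost in 8 of 10 leave-one-out fits and the day 8 call in 6. Mcm3 and Mcm5 rose on day 8, by 0.51 ± 0.13 (adjusted p = 0.00192) and 0.55 ± 0.16 (adjusted p = 0.0047).

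Of 8 origin licensing and firing factors, 1 rose on day 3, 2 on day 5 and 6 on day 8, when their median was 0.43. Among all genes 5.57%, 5.31% and 21.4% rose on those days. Cdt1, which loads the helicase and is destroyed once S phase begins, read 19.5, 19.7, 19.1, 6.58 and 12.9 in the day 3 controls and 23.4, 27.5, 25.7, 30.4 and 31.2 after 3 mg/kg. On day 5 the values were 15.97, 14.5, 15.6, 18.5 and 18.3 against 40.6, 22.6, 24.5, 33.9 and 24.2, and on day 8 18.6, 11.4, 24.7, 16.4 and 13.8 against 35.9, 35.7, 31.9, 36.05 and 38.8. The groups did not overlap on any of the 3 days. The changes were 0.49 ± 0.12 (adjusted p = 0.0047), 0.46 ± 0.12 (adjusted p = 0.00802) and 0.66 ± 0.12 (adjusted p = 1.09e-05), and the day 5 call was lost without replicate 1 of the treated group (adjusted p = 0.0583). Gmnn, which encodes the Cdt1 inhibitor geminin, rose on day 8 from 27.8, 25.6, 20.7, 23.4 and 19.4 in controls to 59.7, 36.5, 43.5, 29.9 and 56.2, again with no overlap, by 0.61 ± 0.15 (adjusted p = 0.00136). Both a loader and its inhibitor thus rose on the same day. On day 5 the change of Gmnn was 0.42 ± 0.15 (adjusted p = 0.0794).

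Mcm10, which helps activate the loaded helicase, changed late. Its day 5 signals were 16.4, 21.2, 22.4, 25.9 and 17.7 in controls and 24.7, 17.5, 26.7, 20.8 and 19.9 after 3 mg/kg, which overlapped widely. On day 8 they were 14.996, 11.5, 13.3, 14.3 and 14.4 and 27.8, 31.9, 27.2, 28.1 and 32.4. All treated rats then lay above all controls, at 0.61 ± 0.11 (adjusted p = 9.8e-06), and the day 8 controls lay below every day 5 control. The change of its response from day 5 to day 8 was 0.57 ± 0.15 (limma adjusted p = 0.00752). Cdc45 rose on day 8 by 0.40 ± 0.11 (adjusted p = 0.00405), Gins4 on days 5 and 8 by 0.41 ± 0.12 (adjusted p = 0.0262) and 0.46 ± 0.12 (adjusted p = 0.00251), and Orc6 on day 8 by 0.28 ± 0.11 (adjusted p = 0.0323). The probe set of Cdc45 is of the kind that can bind related transcripts, and its other probe set past the filter read 0.22 (adjusted p = 0.15). For Orc6 the other probe sets read -0.00 and 0.13, so its call rests on 1 probe set, and it was lost in 6 of 10 leave-one-out fits. The Gins4 call of day 5 was lost in 4 of 10. Gins1 and Gins3 did not pass, at 0.15 ± 0.12 (adjusted p = 0.352) and 0.13 ± 0.13 (adjusted p = 0.462).

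**Figure D3:**
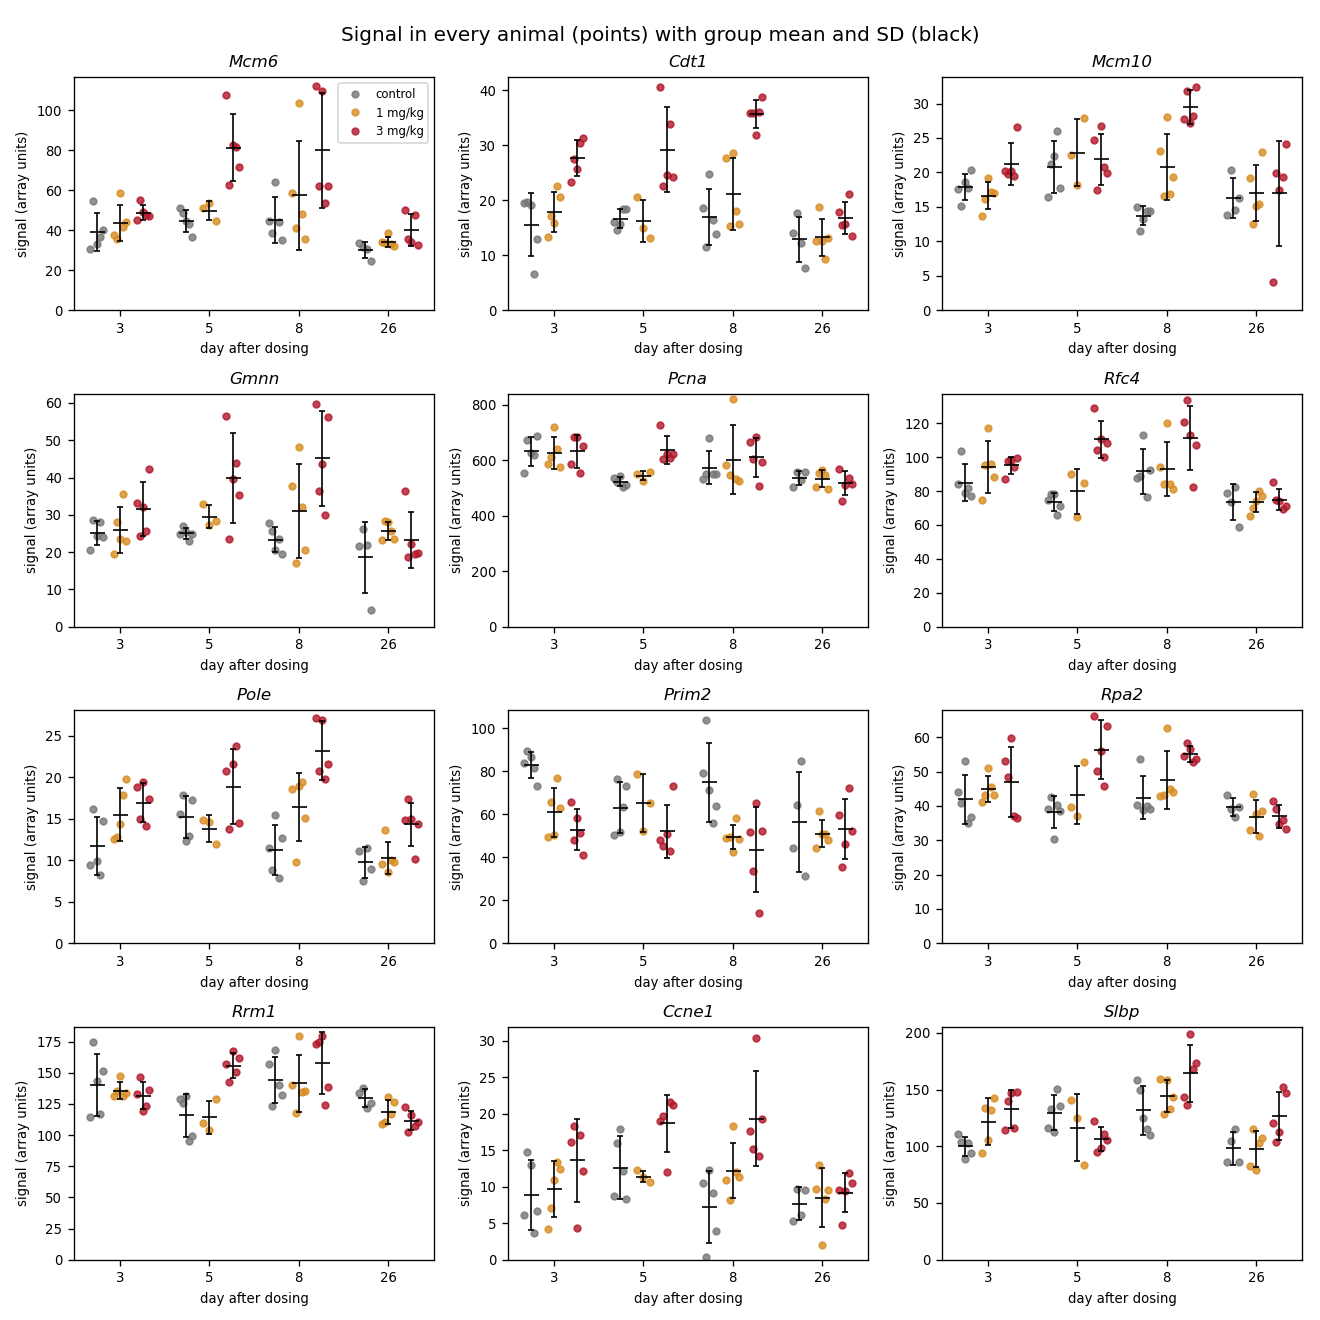
Signal in array units (vertical axes, starting at 0) by day after dosing for 12 replication genes, with 1 point per rat, group mean and SD in black, and control, 1 and 3 mg/kg in grey, orange and red. Cdt1 after 3 mg/kg lies above its controls on days 3, 5 and 8, Pcna, Rfc4 and Rrm1 separate from controls on day 5, and Mcm10, Pole and Ccne1 on day 8.

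Of 6 genes of the sliding clamp and its loader, 2 rose on day 5, Pcna and Rfc4, with a median of 0.21. On that day 5.31% of all genes rose. Pcna, the clamp itself and also a known p53 target, read 536, 521, 545, 503 and 511 in the day 5 controls and 728, 606, 624, 607 and 622 after 3 mg/kg. The groups did not overlap, but the rise was small, 0.27 ± 0.08 (adjusted p = 0.028), and it was lost in 4 of 10 leave-one-out fits, at adjusted p = 0.122 without the brightest treated rat. On day 3 its change was -0.00 ± 0.08 (adjusted p = 0.999) and on day 8 0.09 ± 0.08 (adjusted p = 0.434). Control means of Pcna were 632 on day 3, 523 on day 5 and 574 on day 8. Rats given 3 mg/kg read 556 to 686, 606 to 728 and 507 to 683 on these days. Its day 5 rise was thus measured against the lowest of these control means.

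Rfc4, a loader subunit, read 74.6, 78.01, 78.3, 65.7 and 70.9 in the day 5 controls and 129, 104, 111, 100.3 and 109 after 3 mg/kg. Again all 5 treated rats lay above the controls, at 0.50 ± 0.10 (adjusted p = 0.000504), and every leave-one-out fit kept the call. On day 8 it missed the threshold (0.24 ± 0.10, adjusted p = 0.0504). Rfc3 rose on day 8 from 34.9, 35.9, 43.2, 29.9 and 33.95 in controls to 52.3, 44.4, 54.7, 43.2 and 47.5, all above the highest control, replicate 4 only just, by 0.32 ± 0.11 (adjusted p = 0.0139). Rfc2 and Rfc5 did not pass on any day. The probe sets of Rfc1, the large subunit, disagreed on day 8, the brighter reading -0.11 (adjusted p = 0.522) and the other 0.44 (adjusted p = 0.000211) where every probe set was tested.

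Polymerase and primase genes moved in both directions. On day 8, 2 of 9 rose (Pole and Prim1) and 1 fell (Prim2), with a median of 0.02, and on day 5 0 of 9 passed, with 1 fall on day 3. Since 21.4% of all genes rose and 15.9% fell on day 8, these counts are near the share seen for genes in general. Pole, the catalytic subunit of the leading strand polymerase epsilon, read 11.5, 8.86, 15.4, 7.89 and 12.7 in the day 8 controls and 27.1, 20.8, 26.9, 19.8 and 21.6 after 3 mg/kg. The groups did not overlap, at 0.53 ± 0.09 (adjusted p = 1.11e-05), a gain over day 5 of 0.37 ± 0.13 (limma adjusted p = 0.0438). Its signals are near the level of the added 16, so the log2 change understates that of the signal. Pola1, Pola2, Pold1, Pold2, Pold3 and Pole2, the other polymerase subunits, ranged from -0.15 (Pola1) to 0.26 (Pole2) on day 8.

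The primase subunits moved in opposite directions. Prim1, the small catalytic subunit, read 103, 75.6, 132, 94.6 and 85.2 in the day 8 controls and 152, 139.9, 146, 126 and 162 after 3 mg/kg, with 4 of 5 above every control, 0.51 ± 0.13 (adjusted p = 0.00142). Prim2, the large subunit, read 79.3, 104, 71.2, 56.1 and 64.03 in the same controls and 51.8, 33.6, 65.1, 14.2 and 52.1 after 3 mg/kg, with 4 of 5 below every control, -0.67 ± 0.17 (adjusted p = 0.00177). Its fall on day 3, from 83.8, 89.2, 86.6, 81.6 and 73.3 to 65.5, 48.02, 58.2, 51.4 and 40.98, had no overlap between the groups, -0.53 ± 0.17 (adjusted p = 0.039). The day 3 call was lost in 7 of 10 leave-one-out fits, while no such fit ended the day 8 call. A limma fit of the compared groups alone did end the day 8 call (-0.67, adjusted p = 0.0615). After 1 mg/kg Prim2 also read low on those days, at -0.37 ± 0.17 (adjusted p = 0.787) and -0.46 ± 0.17 (adjusted p = 0.236), neither past the test. It was the only gene of the 45 to fall on more than 1 day, and a single probe set measured it.

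Among the genes that join Okazaki fragments and bind single-stranded DNA, 3 of 5 rose and 1 fell on day 8, with a median of 0.29. On that day 21.4% of all genes rose and 15.9% fell. Fen1, the flap nuclease that trims fragment ends, read 31.4, 16.7, 27.5, 24.1 and 28.6 in controls and 41.6, 33.9, 43.3, 40.6 and 32.96 after 3 mg/kg, without overlap, 0.39 ± 0.11 (adjusted p = 0.00525). Lig1, the ligase that seals the nick, passed narrowly on day 8 (0.33 ± 0.14, adjusted p = 0.0488), lost the call in 6 of 10 leave-one-out fits, and its other probe set read 0.05.

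RPA coats single-stranded DNA as a complex of 3 subunits, and its transcripts parted. Rpa2 read 39.2, 42.6, 30.4, 40.2 and 38.4 in the day 5 controls and 66.1, 50.1, 56.1, 45.8 and 63.4 after 3 mg/kg, all above, 0.41 ± 0.09 (adjusted p = 0.00262), and rose again on day 8 by 0.29 ± 0.09 (adjusted p = 0.0122). Rpa1 read 155, 167, 150.2, 137 and 133 in the day 8 controls and 130.2, 105, 133, 124 and 107 after 3 mg/kg, 4 of 5 below every control, -0.27 ± 0.08 (adjusted p = 0.00619). Rpa3 did not pass, at 0.00, -0.01 and 0.00 on days 3, 5 and 8. So on day 8 one subunit rose, one fell and the third did not pass.

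Of 4 nucleotide supply genes, 1 rose on each of days 3, 5 and 8, when 5.57%, 5.31% and 21.4% of all genes rose. Tyms, thymidylate synthase, read 25.2, 33.2, 29.1, 30.5 and 35.1 in the day 3 controls and 28.9, 47.2, 49.3, 67.3 and 43.6 after 3 mg/kg, with 4 of 5 above every control, 0.42 ± 0.13 (adjusted p = 0.0363). On day 8 it read 36.8, 33.8, 41.2, 40.6 and 36.9 and 48.6, 95.1, 41.6, 51.1 and 57.4, 0.43 ± 0.13 (adjusted p = 0.00828). The day 8 groups did not overlap, but replicate 2 was far above the rest, and without it the change was 0.28 (adjusted p = 0.0769). The day 3 call was lost in 7 of 10 leave-one-out fits, and on day 5 the change was 0.39 ± 0.13 (adjusted p = 0.0554). Rrm1, the large subunit of ribonucleotide reductase, read 129, 126, 131, 95.1 and 99.5 in the day 5 controls and 157, 142, 168, 151 and 162 after 3 mg/kg, all above, 0.39 ± 0.09 (adjusted p = 0.00523). On day 8 it read 157, 123, 168, 140.0 and 133 in controls and 173, 174, 179, 124 and 139 after 3 mg/kg, with 3 of 5 above every control, and did not pass, 0.11 ± 0.09 (adjusted p = 0.362). Tk1, the salvage kinase for thymidine, did not pass on day 8 (0.18 ± 0.11, adjusted p = 0.195), while its second probe set did (0.34, adjusted p = 0.00654). Dut, which clears dUTP, did not pass, with -0.00 ± 0.05 (adjusted p = 0.996) on its bright probe set and 0.45 (adjusted p = 0.0353) on a dim one.

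Of 4 genes of replication-coupled chromatin, 1 rose on day 3, 0 on day 5 and 2 on day 8. The shares of all genes that rose were 5.57%, 5.31% and 21.4% on those days. Slbp, which binds the stem-loop of histone mRNA, changed course between days. It read 110.5, 104, 88.7, 103 and 93.9 in the day 3 controls and 114, 139.7, 147, 116 and 148 after 3 mg/kg, all above, 0.36 ± 0.12 (adjusted p = 0.0388). On day 5 it read 116, 133, 112, 150.4 and 136 and 122, 95.3, 98.2, 110.5 and 105, 4 of 5 below every control but not past the test, -0.25 ± 0.12 (adjusted p = 0.183). On day 8 it rose again, by 0.29 ± 0.12 (adjusted p = 0.0457). The response fell by 0.61 ± 0.16 from day 3 to day 5 (limma adjusted p = 0.0441) and gained 0.54 ± 0.16 from day 5 to day 8 (limma adjusted p = 0.0192). Its calls on days 3 and 8 were lost in 7 and 6 of 10 leave-one-out fits.

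Uhrf1, which guides maintenance methylation at the fork, read 7.69, 6.48, 14.2, 9.44 and 4.61 in the day 8 controls and 6.43, 10.8, 23.5, 26.7 and 34.1 after 3 mg/kg, 0.52 ± 0.17 (adjusted p = 0.0111). Of the treated rats 3 stood above every control and 2 lay among them, and without replicate 5 the call was lost (adjusted p = 0.0703). On day 5 all 5 treated rats, at 21.6, 18.7, 19.04, 24.5 and 24.5, were above controls of 12.04, 12.9, 10.99, 10.05 and 11.9, yet the change did not pass, 0.45 ± 0.17 (adjusted p = 0.0788). Chaf1a and Chaf1b, subunits of the histone chaperone CAF-1, did not pass on any day. Chaf1b read 22.3, 11.97, 17.5, 13.6 and 12.04 in the day 3 controls and 20.3, 20.96, 25.1, 23.4 and 24.2 after 3 mg/kg, 0.31 ± 0.14 (adjusted p = 0.142), with 1 control inside the treated range.

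Of the 3 genes of the G1 to S switch, the 2 E cyclins rose on day 8, with a group median of 0.56, when 21.4% of all genes rose. Ccne1 read 10.5, 0.367, 12.2, 9.11 and 3.92 in the day 8 controls and 17.6, 15.1, 30.4, 14.2 and 19.3 after 3 mg/kg. The groups did not overlap, 0.62 ± 0.14 (adjusted p = 0.000627), though 3 of the controls were under 10, in the dimmest part of the scale. Ccne2 read 18.5, 31.9, 46.5, 30.2 and 26.03 and 61.5, 56.3, 67.8, 36.5 and 41.3, 0.56 ± 0.20 (adjusted p = 0.0221), with 3 of 5 above every control. Its second, dimmer probe set read -0.05, the mean of both gave 0.26 (adjusted p = 0.0704), and the call was lost in 3 of 10 leave-one-out fits. E2f1, which encodes an activating E2F factor, read 16.96, 11.96, 31.3, 18.2 and 14.96 in controls and 23.8, 21.3, 30.5, 19.7 and 23.9 after 3 mg/kg, overlapping, 0.22 ± 0.13 (adjusted p = 0.184). On day 3 its change was 0.25 ± 0.13 (adjusted p = 0.209) and on day 5 0.05 ± 0.13 (adjusted p = 0.878).

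Set against each other, the changes of days 5 and 8 placed most genes in the quadrant where both were above 0. Mcm6, Cdt1 and Gins4 were high on both days. Mcm10, Pole and Prim1 were near or below 0.15 on day 5 and above 0.50 on day 8, while Mcm2, Pcna and Rrm1 were higher on day 5. A test of the change of response between successive days passed for 1 gene from day 3 to 5 (Slbp, lower), 3 from day 5 to 8 (Mcm10, Pole and Slbp, higher) and 2 from day 8 to 26 (Mcm10, by -0.62 ± 0.16, and Rfc3, by -0.44 ± 0.15). Among all genes 1.52%, 16.3% and 15.0% passed in these tests (0.942% lower, 8.65% higher and 7.66% lower). From day 8 to 26 the count of 2 was 6 without day 8 control replicate 3, 4 without day 8 treated replicate 3 and 5 without day 26 treated replicate 1. It was 1 without day 8 control replicate 4 or 5, day 26 control replicate 2 or day 8 treated replicate 5. From day 3 to 5 it was 0 or 2 in 15 of the 20 fits that left out an array. The fall of Mcm2 from day 5 to 8 was therefore not shown by a test, nor was that of Pcna, Rrm1 or Rfc4.

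**Figure D4:**
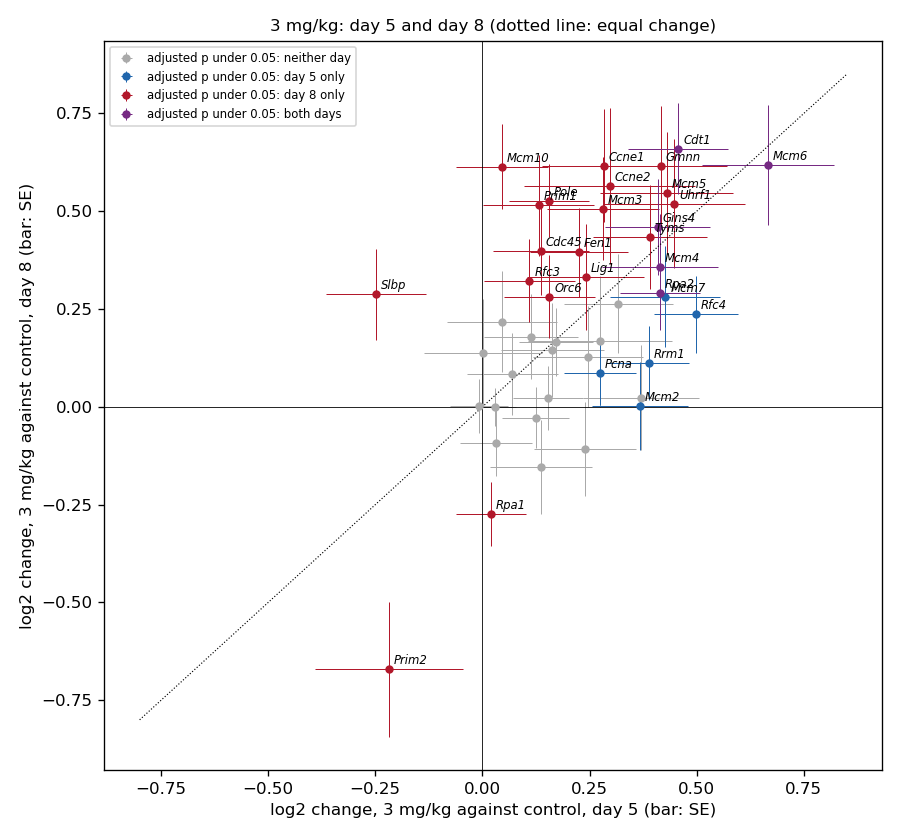
Log2 change of (signal + 16) after 3 mg/kg on day 5 (horizontal axis) and day 8 (vertical axis) for the 45 replication genes, with standard errors as bars, the line of equal change dotted, and colour showing on which day the adjusted p was under 0.05. Mcm6 stands at 0.67 and 0.62, Mcm10 at 0.05 and 0.61, Mcm2 at 0.37 and 0.00, and Prim2 is lowest on day 8 at -0.67.

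At 1 mg/kg no replication gene passed the test on any day. In limma 0 of 45 were called on days 3, 5, 8 and 26, with 4, 1, 8 and 2 at an unadjusted p under 0.05. Few genes of any kind passed at this dose, 0.0942%, 0.0171%, 0.522% and 0.00856% of all genes. The medians of the 45 were 0.07, 0.03, 0.13 and 0.02, beside 0.01, -0.00, 0.02 and 0.00 for all genes, and 35 of 45 were above 0 on day 8. The largest changes of day 8 were in Prim2 (given above), Cdc45 (0.33 ± 0.11, adjusted p = 0.188), Mcm3 (0.32 ± 0.13, adjusted p = 0.277) and Mcm10 (0.30 ± 0.11, adjusted p = 0.214). Mcm10 was the only 1 of the 45 whose 5 rats, at 23.2, 16.5, 27.97, 16.9 and 19.3, all lay above the controls of that day, which 1.69% of all genes showed.

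Compared directly, the 3 mg/kg group was above the 1 mg/kg group for 3 genes on day 5 and 4 on day 8, and below it for Rpa1 on day 8. On day 5, with 3 rats at the lower dose, these were Cdt1 (0.48 ± 0.13), Rfc4 (0.41 ± 0.11) and Rrm1 (0.40 ± 0.11), where 3.97% of all genes passed (2.59% higher at 3 mg/kg). In all, 9 of the 45 genes had every rat of the higher dose above every rat of the lower, against 7.66% of all genes. Rfc4 read 90.3, 64.9 and 84.5 and Rrm1 109.6, 104 and 129 at 1 mg/kg, below all rats of the higher dose given above. On day 8, Cdt1 differed by 0.50 ± 0.12, Tyms by 0.38 ± 0.13, Mcm10 by 0.32 ± 0.11, Pole by 0.28 ± 0.09 and Rpa1 by -0.26 ± 0.08, where 23.1% of all genes passed (12.1% higher at 3 mg/kg and 11.1% lower). Cdt1 at 1 mg/kg read 27.7, 15.2, 28.6, 18.04 and 15.7, all below the higher dose, a separation that Cdt1 and Pole shared with 2.99% of all genes. These counts varied with single arrays. Without replicate 2 of 1 mg/kg or replicate 1 of 3 mg/kg the day 5 count was 0, and without replicate 3 of 1 mg/kg it was 1. On day 8 the count was 16 without replicate 3 of 1 mg/kg, 10 without replicate 4 of 3 mg/kg, and 2 and 3 without replicates 2 and 4 of 1 mg/kg. In limma 0 passed on days 3 and 26 (10 and 4 at an unadjusted p under 0.05), where 3.12% and 0.0% of all genes did.

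On day 26 none of the 6 genes with the largest day 8 rises passed the test. Their changes were 0.19 ± 0.12 for Cdt1, 0.27 ± 0.16 for Mcm6, 0.09 ± 0.15 for Ccne1, 0.22 ± 0.16 for Gmnn, -0.00 ± 0.11 for Mcm10 and -0.19 ± 0.21 for Ccne2. Pole, among the 4 at an unadjusted p under 0.05, was at 0.23 ± 0.10 (adjusted p = 0.216). The highest day 26 values were in Pola2 (0.39 ± 0.14, adjusted p = 0.145) and Slbp (0.32 ± 0.12, adjusted p = 0.163). Rfc2 and Gins4 were above every control in all 5 treated rats, which 3.62% of all genes showed, by 0.23 ± 0.09 and 0.22 ± 0.13. In control rats alone, 0 genes passed between day 3 and day 26 in limma (6 at an unadjusted p under 0.05), where 2.03% of all genes did. Their median was -0.09, with 5 of 45 above 0, beside -0.01 for all genes. Most values were thus slightly lower on day 26 with no gene past the test, Prim2 (-0.51 ± 0.18, adjusted p = 0.157) and Pcna (-0.23 ± 0.09, adjusted p = 0.205) being among the lowest. The 29 mitosis genes described below had a median of -0.43 in the same comparison, and 2 of them fell.

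Single animals differed within groups. The median over the 45 genes, each against its same-day control mean, ran from -0.12 to 0.12 among the control rats. Each control rat is part of the mean it is set against, which narrows that range. After 3 mg/kg it was 0.12, 0.16, 0.18, 0.02 and 0.20 in replicates 1 to 5 on day 3, 0.36, 0.12, 0.26, 0.21 and 0.19 on day 5, and 0.40, 0.12, 0.44, 0.10 and 0.23 on day 8. Every treated rat was thus above 0 on these days, and on day 8 replicates 1 and 3 were the highest and 2 and 4 stood near the top of the control range. On day 3 the all-gene medians of the treated rats were also above 0, at 0.031 to 0.037. In replicate 4 of that day the all-gene median was 0.032 and the replication median 0.021. In the same 5 day 8 rats, Umod, a thick ascending limb gene, changed by -1.74, -7.16, -1.51, -6.15 and -6.97, so the rats with the most Umod left had the highest replication medians. Havcr1, the injury protein KIM-1 of proximal tubule, changed by 6.66, 5.28, 5.00, 6.20 and 6.25, in another order. The mitosis genes had medians of 0.72, 0.32, 0.72, 0.25 and 0.54.

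After 1 mg/kg on day 8 the replication medians were 0.22, -0.07, 0.43, 0.04 and -0.04, and Havcr1 changed by 5.41, 1.15, 5.66, 1.17 and 0.63 in the same rats. The 2 rats with high Havcr1 were those with high replication transcripts, and the other 3 lay near controls. Macrophage medians were 0.32, 0.06, 0.70, 0.16 and -0.19, fibroblast medians 0.51, -0.08, 0.46, -0.24 and -0.10, and actin 3'/5' ratios 8.58, 6.01, 4.52, 5.87 and 5.45 in those 5 rats. The part of these in the replication values was not tested. On day 26 after 3 mg/kg the medians were 0.15, -0.01, 0.08, 0.08 and 0.02. These values describe single animals and were not tested.

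**Figure D5:**
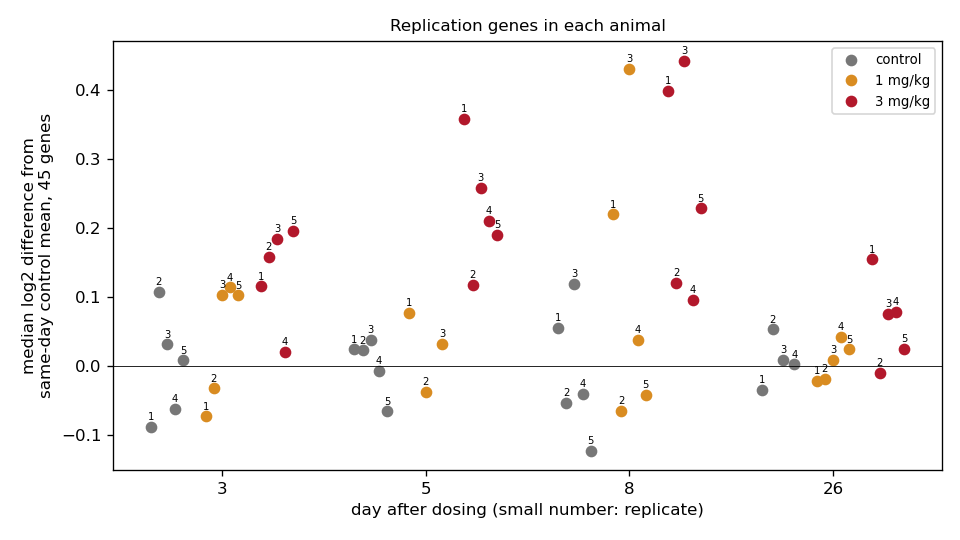
Median log2 difference of the 45 replication genes from the mean of same-day controls (vertical axis) for each of the 57 rats by day (horizontal axis), in grey for control, orange for 1 mg/kg and red for 3 mg/kg, with replicate numbers. The day 8 rats spread most, from 0.10 to 0.44 after 3 mg/kg and from -0.07 to 0.43 after 1 mg/kg.

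Related genes outside the list were looked up by role. After 3 mg/kg, 19 of 31 further replication genes were tested, and 1 rose and 1 fell on day 3, 2 rose on day 5, and 9 rose and 3 fell on day 8. Day 8 rises included Mcm8, a helicase of recombination (0.47 ± 0.11), and Donson, a helicase assembly factor (0.44 ± 0.12), while Rnaseh2b, a subunit of the RNase that removes ribonucleotides, fell (-0.41 ± 0.06). Of 17 further nucleotide and chromatin genes 1, 3 and 7 rose on days 3, 5 and 8 and 1 fell on day 8, with Ctps1, CTP synthase, at 0.86 ± 0.11 and the remodeller Hells at 0.50 ± 0.08. Of 17 replication stress and translesion genes 0, 0 and 7 rose, led on day 8 by Rad18, the ligase that marks PCNA at stalled forks (0.71 ± 0.12). The day 8 medians of these 3 lists were 0.06, 0.22 and 0.12, beside 0.04 for all genes. Genes that rose made up 5.57%, 5.31% and 21.4% of all genes on days 3, 5 and 8.

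Of 24 further G1 to S regulators 3, 5 and 10 rose and 1, 2 and 1 fell on days 3, 5 and 8. Among all genes 5.57%, 5.31% and 21.4% rose and 4.28%, 3.49% and 15.9% fell on those days. Cdkn1a, the inhibitor p21 that holds cyclin E kinase in check, read 35.8, 43.4, 39.8, 67.8 and 65.6 in the day 8 controls and 285, 381, 251, 574 and 547 after 3 mg/kg, a rise of 2.63 ± 0.19. It was up by 2.09 ± 0.19 on day 3 and 2.29 ± 0.19 on day 5, so an inhibitor of S phase entry and genes of S phase were raised together. Ccna2, the S phase cyclin, rose on day 8 by 0.80 ± 0.23 and Myc by 1.62 ± 0.22. Of 29 mitosis genes 0 rose on day 3, 2 on day 5 (Ect2 and Aurkb) and 24 on day 8, where their median was 0.54. Mki67 and Top2a, which mark cycling cells, changed by 0.51 ± 0.18 (adjusted p = 0.061) and 0.34 ± 0.19 (adjusted p = 0.265) on day 5 and rose by 0.70 ± 0.18 and 0.75 ± 0.19 on day 8.

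Markers of other cells moved on some of the same days. On day 3, 2 of 4 blood genes fell, Hbb by 1.47 and Alas2 by 0.92 on the log2 scale, where 4.28% of all genes fell. The summed signal of the blood genes was 1652 to 2798 in controls and 521.6 to 1098 after 3 mg/kg. The actin 3'/5' ratio of that day was 4.66 ± 0.25 (SD, n = 5) in controls and 5.89 ± 0.10 (SD, n = 5) after 3 mg/kg, without overlap. With the ratio as a covariate, 2 genes of the 45 passed on day 3 in place of 5, and Mcm7, Prim2 and Slbp did not. On day 5, 0 of 5 macrophage, 0 of 5 fibroblast and 0 of 3 lymphocyte markers passed, and the actin ratios were 5.07 ± 0.39 and 5.42 ± 0.38.

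On day 8, 3 of 5 macrophage markers rose, Mrc1 by 0.97, Cd68 by 0.75 and Csf1r by 0.51. Their list summed to 280.6 to 338.5 in controls and 301.4 to 551.2 after 3 mg/kg, with the defining markers Cd163 and Itgam under 16 in every rat of both groups. Of 5 fibroblast markers 3 rose, Dcn by 1.21, Acta2 by 0.65 and Pdgfrb by 0.32, and the list summed to 1319.9 to 1590.5 and 2090.1 to 2855, without overlap. Lymphocyte markers did not pass (0 of 3), with sums of 28.7 to 37.5 and 29.7 to 62.4 and Cd3e, Cd3d, Cd8a, Cd79b and Ms4a1 under 16 throughout. In the 5 treated rats the macrophage medians were 0.80, 0.13, 0.83, 0.15 and 0.56, highest in replicates 1 and 3, as were the replication medians given above. Some markers of other kidney cells fell on that day, 3 of 3 of thick ascending limb, 1 of 3 of collecting duct, 2 of 3 of podocyte and 1 of 4 of endothelium. Among all genes 21.4% rose and 15.9% fell on day 8. Thick ascending limb signals summed to 3904 to 5344 in controls and 39.5 to 2153 after 3 mg/kg, without overlap. Endothelium sums were 1158 to 1257 and 1042 to 1155, which only just parted. Proximal tubule sums overlapped, at 11675 to 13515 in controls and 12352 to 14567 after 3 mg/kg. The part of these cells in the day 8 changes was not tested.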

How the data were processed

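Kidney cortex RNA of 57 rats was measured on Affymetrix arrays. The authors deposited MAS5 signal values, per the submitters' processing notes, which are linear intensity values, 1 per probe set, scaled so that every array has nearly the same trimmed mean (99.9 to 100). Of the probe sets, 20826 have 1 gene symbol in the platform annotation, 436 several and 9780 none, and 20758 symbols were updated through Entrez identifiers. Here 16 was added, log2 taken, and probe sets kept that exceeded the 40th percentile of their array on 3 or more arrays (21829). The probe set with the highest mean stood for a gene. Group means of the 12 groups were fitted with limma 3.58.1 in R 4.3.3, with a trended prior variance, two-sided tests and Benjamini-Hochberg adjustment over the 11683 genes of each comparison. Errors are standard errors that pool all groups, and an error after a mean is an SD. On simulated data for 3 mg/kg on day 8, 85% of log2 changes of 0.5 and 99% of changes of 1 were recovered. The simulation gave each gene the same spread in all groups. The real arrays of that group differed more, correlating down to 0.973, so these rates need not hold for them.

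The 47 members and all other gene lists were chosen with earlier results of these data known, so their counts are descriptions and no list was tested. Signals of every rat are given for the gene of each role with the largest day 8 change at 3 mg/kg and for Pcna, Mcm6, Cdt1, Gmnn, Tyms, Ccne1, Ccne2, E2f1 and Chaf1b, and other genes were added after their values were seen. From each other list up to 3 of the largest day 8 changes are named, beside Cdkn1a, Mki67, Top2a, Havcr1 and Umod. Alternatives were another offset, no filter, a stricter filter, other normalizations, the mean of all probe sets of a gene, the compared groups alone, the replicate number as a block, the actin ratio as a covariate, and leaving out each array. Promoters are from RefSeq, assembly GRCr8. Promoters of Gins4, E2f1, Orc1, Rpa3, Mcm4 and Ccne2 were not used here.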

Additional observations from a re-analysis of the deposited data

Results flagged for a closer look

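The response to 3 mg/kg differed between successive days for 4 replication genes, by a test of the difference itself in limma. Among all genes 1.52% passed this test from day 3 to 5, 16.3% from day 5 to 8 and 15.0% from day 8 to 26. Mcm10 gained 0.57 (log2) from day 5 to 8 and changed by -0.62 from day 8 to 26. Its control mean was 20.75 on day 5 and 13.71 on day 8. Pole gained 0.37 from day 5 to 8. Slbp changed by -0.61 from day 3 to 5 and then gained 0.54 from day 5 to 8. Without a filter, or with the actin ratio as a covariate, 0 genes passed from day 3 to 5. Rfc3 changed by -0.44 from day 8 to 26.

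Single rats stood apart in 7 of 143 groups of 4 or 5 rats over 13 genes, judged by the gap to the next rat as a share of the group's range, a rate near the 1 in 20 that chance gives. Pcna was high in 3 of them. It read 681 in day 8 control replicate 3, where the others read 534 to 552 (0.863 of the range), 822 in replicate 3 of 1 mg/kg on day 8, where the others read 525 to 584 (0.766), and 728 in replicate 1 of 3 mg/kg on day 5, where the others read 606 to 624 (0.839). Gmnn read 4.60 in day 26 control replicate 4, where the others read 21.7 to 26.3 (0.842), and 36.3 in replicate 1 of 3 mg/kg on day 26, where the others read 18.7 to 22.1 (0.777). Tyms read 23.7 in replicate 1 of 1 mg/kg on day 3, where the others read 34.1 to 38.4 (0.74). Ccne1 read 12.0 in replicate 3 of 3 mg/kg on day 5, where the others read 19.0 to 21.6 (0.761).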

How the results depend on the processing

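Counts of called replication genes at 3 mg/kg kept within 1.5 times of the reported value under the settings that kept all arrays, with 2 exceptions. On day 3 the count of 5 fell to 2 with the actin ratio as a covariate, and on day 8 the count of 23 fell to 15 under the 60th percentile filter, which left 29 of the 45 genes in the test. Between the doses, the count went from 0 to 1 with an offset of 64 and to 2 with the compared groups alone on day 3, from 3 to 1 with the compared groups alone on day 5, and from 5 to 9 with centring on the 75th percentile, 3 with the actin covariate and 1 with the compared groups alone on day 8. For changes between days, the count from day 3 to 5 went from 1 to 0 without a filter or with the actin covariate and to 2 with the replicate block. From day 5 to 8 it went from 3 to 1 under the 60th percentile filter, and from day 8 to 26 from 2 to 5 with 75th percentile centring and to 1 without a filter, under the 60th percentile filter and with the actin covariate. Rats with the same replicate number did not deviate together (median correlation 0.0144 over 298 pairs, from -0.168 to 0.259), so these values showed no pairing by number. With the replicate block 5, 10 and 24 genes were called on days 3, 5 and 8. Leaving out each array gave 1 to 4 calls on day 3, 5 to 12 on day 5, 18 to 25 on day 8, 0 to 4 and 2 to 16 between doses on days 5 and 8, 0 to 2, 2 to 4 and 1 to 6 for the changes between days, and 0 to 1 between controls of days 26 and 3. Over the other settings, 382 values of single called genes kept their call, 25 lost it and none reversed. With the compared groups alone, the day 8 calls of Prim2, Cdc45, Tyms, Uhrf1, Orc6, Lig1 and Slbp at 3 mg/kg were lost. Leaving out single arrays, 298 kept their call, 82 lost it and none reversed. Some of these genes are dim, 7 of the 45 with a mean signal under 16, and the offset shrinks their changes most.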
